A study of Mus musculus with 27 samples.

Results

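The 36 genes described here were listed for the machinery that tethers, primes, fuses and recovers synaptic vesicles. They were chosen by name, as a list of SNARE proteins and the factors that take SNARE complexes apart, calcium sensors, complexins, priming factors, Rab3 proteins, vesicle membrane proteins, synapsins and endocytic proteins, which the expression table gives in lower case (snap25, vamp1, syt2, cplx1 and so on). All 36 were among the 26264 genes of the table and all 36 were among the 12976 genes that passed the filter on low values and were tested.

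A synaptic vesicle is tethered in the reserve pool by synapsins, brought to the release site with Rab3 proteins, primed by CAPS proteins, and zippered to the plasma membrane by SNARE proteins. Complexins clamp the partly zippered complex until a synaptotagmin binds calcium and lets the membranes fuse. NSF and its SNAP adaptors then take the SNARE complex apart, while dynamin, amphiphysin, endophilin and synaptojanin pinch off and uncoat the recovered membrane.

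RNA was sequenced from the cortex of female 5xFAD mice on a C57BL6 background, 16 weeks old, a model of Alzheimer disease whose transgenes are driven by the neuronal Thy1 promoter. Each mouse received 500 nL of R55, R33 or vehicle in the lateral parietal cortex of one hemisphere, and 24 h later a tissue block was taken at the injection site (injected) and at the matching place on the other side (contralateral). R55 and R33 are thiophene thioureas described as stabilisers of the retromer, a complex that sorts endosomal cargo, and both were given at 10 mM, while the vehicle held 3% DMSO and 20% sulfobutylether beta-cyclodextrin. The libraries used here were 8 from 4 vehicle mice, 9 from 5 R33 mice (1 mouse with the injected side only) and 10 from 5 R55 mice, 27 in all.

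All groups carried the 5xFAD transgenes and all were injected, so no wild-type and no uninjected mouse was compared. Of the 14 mice, 9 had labels of 1 letter (vehicle J, M and L, R33 K, O and N, R55 P, Q and R) and 5 had labels of 2 letters (vehicle AH, R33 AE and AD, R55 AA and AB). The labels do not say what this difference stands for. The comparisons asked what R55 and R33 each did against vehicle, whether the compounds differed, and whether the injected side differed from the contralateral side.

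Depth ran from 20187307 to 38077026 fragments per library, with a median of 28162028. The excitatory marker Slc17a7 (312 to 708 FPKM) and the pan-neuronal, GABAergic, astrocyte, microglia and oligodendrocyte lists were present in every library. FPKM are fragments per kilobase of transcript, scaled to the fragments of the library, so they compare levels between genes per length. The injected libraries of R33 mouse N and vehicle mouse L stood apart in the striatal marker Adora2a, at 22.3 and 11.5 FPKM against a median of 1.004 FPKM, and the choroid plexus marker Ttr ranged from 2.09 to 1616 FPKM. The injected library of mouse AD and the contralateral library of mouse Q had the steepest loss of signal with transcript length. These are bulk libraries, in which fewer cells of a type and less RNA per cell cannot be told apart.

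The promoters of the genes on which the results below turn most, Vamp1, Syt2 and Cplx1, are printed to show the sequence at their starts, from the RefSeq table of build GRCm38.p6 (250 bases before to 50 bases after the start, read along the gene). Capitals mark GC boxes (GGGCGG or CCGCCC on the other strand) and the core of the cAMP response element (TGACG or CGTCA), both strands searched. Vamp1 is shown at chr6:125215331-125215630 (plus strand), the 2 starts of Syt2 at chr1:134646362-134646661 and chr1:134709050-134709349 (plus strand), and Cplx1 at chr5:108549978-108550277 (minus strand).
Vamp1: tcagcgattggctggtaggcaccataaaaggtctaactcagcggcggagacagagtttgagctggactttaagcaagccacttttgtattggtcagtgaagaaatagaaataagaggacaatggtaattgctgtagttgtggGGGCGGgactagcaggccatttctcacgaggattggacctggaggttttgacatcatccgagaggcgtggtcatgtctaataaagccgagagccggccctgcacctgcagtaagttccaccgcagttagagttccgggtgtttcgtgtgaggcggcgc
Syt2, first start: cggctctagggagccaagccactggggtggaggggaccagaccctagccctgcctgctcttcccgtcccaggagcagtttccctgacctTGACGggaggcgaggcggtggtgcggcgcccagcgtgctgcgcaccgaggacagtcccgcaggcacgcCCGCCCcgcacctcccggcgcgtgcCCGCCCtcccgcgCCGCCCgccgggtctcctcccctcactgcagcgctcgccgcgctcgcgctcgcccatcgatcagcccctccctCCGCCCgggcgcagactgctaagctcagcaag
Syt2, other start: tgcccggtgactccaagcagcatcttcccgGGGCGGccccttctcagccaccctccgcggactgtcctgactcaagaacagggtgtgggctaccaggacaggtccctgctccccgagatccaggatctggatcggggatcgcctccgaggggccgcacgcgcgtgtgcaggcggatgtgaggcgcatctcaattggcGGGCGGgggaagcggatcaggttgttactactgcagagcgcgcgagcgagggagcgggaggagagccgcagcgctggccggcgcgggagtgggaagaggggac
Cplx1: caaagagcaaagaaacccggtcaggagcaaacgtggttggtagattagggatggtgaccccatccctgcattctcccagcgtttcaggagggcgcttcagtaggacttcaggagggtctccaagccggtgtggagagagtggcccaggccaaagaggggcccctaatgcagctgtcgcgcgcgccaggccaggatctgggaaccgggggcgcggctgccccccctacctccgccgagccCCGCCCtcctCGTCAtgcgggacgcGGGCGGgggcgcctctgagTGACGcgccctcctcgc

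Of the 36 genes, 28 had an entry in that promoter table, with 38 windows. A GC box stood in 22 of these windows (57.9%), against 35.7% of all 32851 windows. The core of the cAMP response element stood in 9 (23.7%, against 20.8% of all windows) and the TATA box TATAAA in 3 (7.89%, against 13.6%). The CCAAT box stood in 11 (28.9%, against 37.4%). The full cAMP response element TGACGTCA, which contains the core, was in 3 windows (7.89%, against 1.79%), those of Napa, Sh3gl2 and Syn1. The opening part of the neuronal silencer element RE1, TTCAGCACC, was only in that of Syn1 among the 28 (2.63% of windows, against 0.371%). The printed windows held 1 GC box in Vamp1, 4 and 2 in the starts of Syt2 and 2 in Cplx1.

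The levels of the 36 genes spanned a 633-fold range, and together they took between 2.03% and 2.78% of the fragments of a library. Their median level was 117 FPKM, against 9.31 FPKM over all tested genes, and 20 of the 36 had a mean above 100 FPKM. Snap25, the plasma membrane SNARE (chr2:136533580-136624362 in GRCm39, the build of all gene positions given here), was the highest, with a mean of 1653 ± 217 FPKM (SD over 14 mice). Vamp2 and Syp, the main vesicle SNARE and the vesicle glycoprotein synaptophysin, followed at 642 ± 47.2 and 614 ± 47.9 FPKM, and these neighbours were in this order in 13 of 14 mice. Sv2c, the least abundant of the SV2 vesicle glycoproteins, was the lowest at 2.61 ± 0.74 FPKM, with at least 102 fragments in every library.

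**Figure D1:**
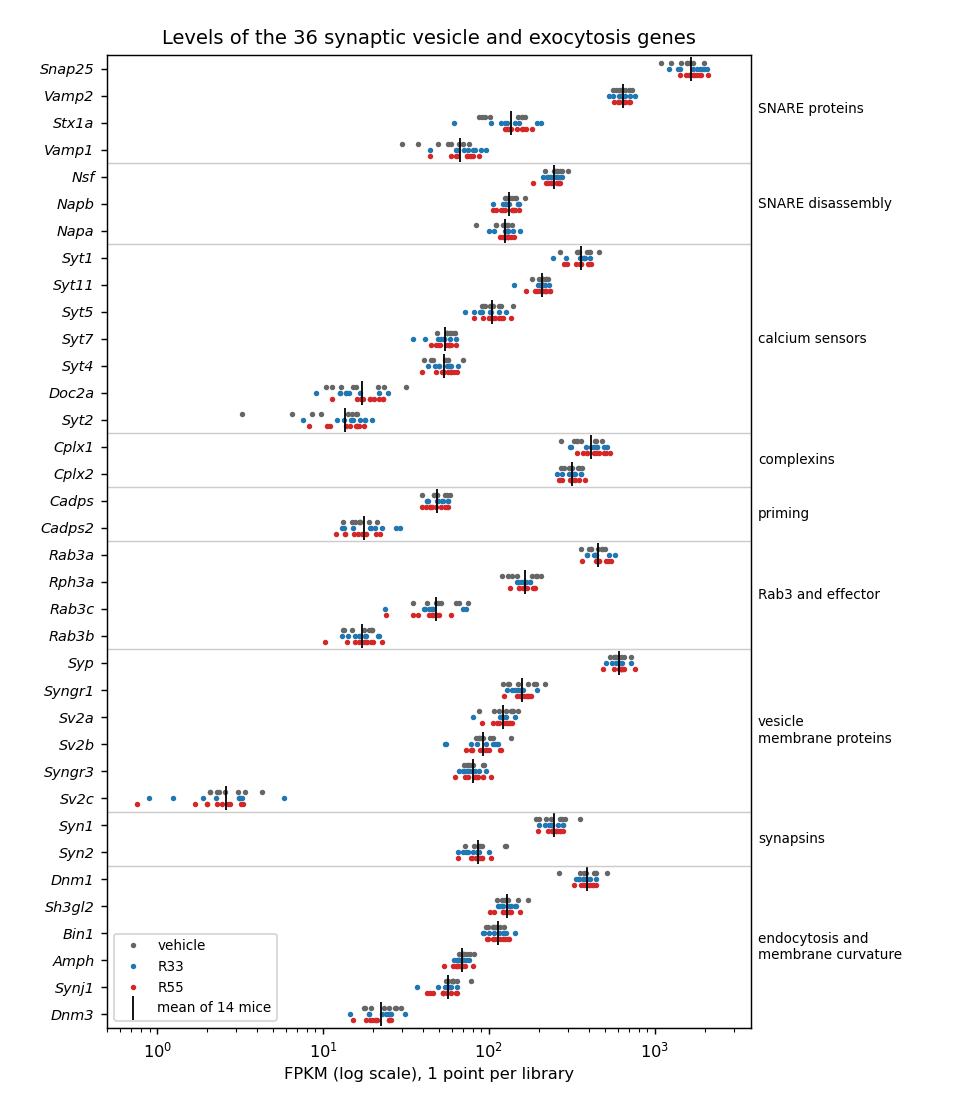
FPKM on a log scale of the 36 genes, grouped by role. Each point is a library, coloured by treatment, and the black tick is the mean of the 14 mice. Snap25 lies at the top of the range and Sv2c at the bottom, and the points of the 3 treatments overlap in every row.

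Within most roles the members differed in level. Among the SNARE proteins, Stx1a (syntaxin, the other plasma membrane SNARE) had a mean of 136 ± 31.3 FPKM and Vamp1, the close relative of Vamp2, 67.0 ± 11.1 FPKM. Among the calcium sensors, Syt1, the fast sensor of most forebrain synapses, reached 359 ± 36.3 FPKM, while Syt2, a fast sensor known from the terminals of parvalbumin interneurons, reached 13.6 ± 2.60 FPKM. The complexins Cplx1 and Cplx2 stood at 414 ± 63.5 and 317 ± 26.1 FPKM. The priming factor Cadps was at 48.9 ± 4.52 FPKM and its relative Cadps2 at 17.7 ± 3.74 FPKM. Rab3a, the main Rab3 protein of synaptic vesicles, was at 454 ± 46.3 FPKM, with Rab3c at 47.9 ± 10.3 and Rab3b at 17.2 ± 2.57 FPKM. The levels of the synapsins Syn1 and Syn2, which tether vesicles to each other, were 248 ± 30.5 and 86.4 ± 9.84 FPKM. Dnm1, the neuronal dynamin, was the highest endocytic gene at 391 ± 43.3 FPKM and Dnm3 the lowest at 22.3 ± 3.58 FPKM. Of the 35 pairs of neighbours in the order of all levels, 5 kept their order in each of the 14 mice.

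The genes also differed in how much they varied between libraries. Vamp2 (1.42-fold between the lowest and the highest library), Cadps (1.47-fold) and Cplx2 (1.48-fold) varied least. Sv2c (7.69-fold) and Syt2 (6.14-fold) varied most, followed by Doc2a (3.51-fold), Stx1a (3.37-fold), Vamp1 (3.21-fold) and Rab3c (3.18-fold). Syt2 was counted from at least 627 fragments in every library and Vamp1 from at least 2503.

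R55 was compared with vehicle over both hemispheres, and none of the 36 genes passed the test (limma on log2(FPKM + 1), Benjamini-Hochberg adjusted over all tested genes, threshold 0.05). With limma voom on the recovered fragments the count was also 0. Over all genes 1 was called (0.00771%), the calcium release channel gene Ryr2, which was lower, is not one of the 36 and is named here after its values were seen. At an unadjusted p under 0.05, 1 of the 36 was higher (all genes 4.71%) and 2 were lower (all genes 3.74%). The median log2 fold change of the 36 was -0.0055, with 16 estimates above 0 and 20 below, while the median over all genes was 0.03. With median-of-ratios size factors the counts over all genes were 447 higher and 620 lower, in place of 611 and 485.

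The smallest p in this comparison belonged to Vamp1, a vesicle SNARE (chr6:125192340-125222927). Its mouse means were 53.1, 53.1, 53.7 and 62.8 FPKM in vehicle mice J, M, L and AH, and 73.4, 51.3, 78.5, 71.0 and 75.6 FPKM in R55 mice P, Q, R, AA and AB. R55 mouse Q was below every vehicle mouse and the other 4 R55 mice were above all of them, so the groups overlapped. Its log2 fold change was 0.36 ± 0.15 (SE, n = 10 and 8 libraries of 5 and 4 mice, 95% interval 0.05 to 0.67, limma adjusted p = 0.557). Over all tested genes, the mouse means of R55 lay wholly above those of vehicle in 1.0% and wholly below in 1.41%, and this was so for none of the 36.

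Synj1, the phosphatase synaptojanin that helps to uncoat vesicles (chr16:90732969-90808396), had the next smallest p. Its vehicle means were 57.6, 62.6, 69.1 and 58.8 FPKM in mice J, M, L and AH, and its R55 means were 61.7, 53.4, 48.4, 52.9 and 51.1 FPKM in mice P, Q, R, AA and AB. All R55 mice but P were below the vehicle mice. The log2 fold change was -0.22 ± 0.09 (limma adjusted p = 0.570). Its transcript is among the longest of the list, 7229 bp, and with the trend on length removed the estimate was -0.14 (limma adjusted p = 0.734).

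Amph, which encodes amphiphysin, a protein that brings dynamin to curved membrane (chr13:19132375-19338201), averaged 72.0 ± 4.22 FPKM in 4 vehicle mice and 66.3 ± 5.996 FPKM in 5 R55 mice (log2 fold change -0.12 ± 0.06, limma adjusted p = 0.586). Of the 5 R55 mice, 3 were below every vehicle mouse. Syt2 had R55 mouse means of 13.5, 11.4, 12.4, 15.97 and 16.7 FPKM in mice P, Q, R, AA and AB, and all but AA and AB lay within the vehicle range of 9.14 to 15.2 FPKM. For Syt2 the log2 fold change was 0.40 (95% interval -0.01 to 0.82, limma adjusted p = 0.589), and for Cplx1, a complexin, it was 0.23 (95% interval -0.01 to 0.47, limma adjusted p = 0.589).

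By role, the estimates for R55 against vehicle leaned differently, with no member past the test in any role. All 4 SNARE genes were estimated higher (median log2 fold change 0.23), while 5 of the 6 endocytic genes (median -0.09), both synapsins and both CAPS genes were estimated lower. The roles also differed in transcript length, which moved with these estimates (below). SNARE transcripts were 2164 to 3154 bp long, against a median of 3833 bp for the 36. Those of Synj1, Dnm3, Syn2, Cadps and Cadps2 were 5541 to 7523 bp, but those of Sh3gl2, Syn1 and Amph were 2806 to 3231 bp. The part of length in the leaning by role was not tested. Of the 7 genes grouped as calcium sensors, 4 were higher and 3 lower. This group holds the synaptotagmins and Doc2a, and not all of them, such as Syt4, act as fast calcium sensors. Of the 6 vesicle membrane genes 3 were higher and 3 lower. Of the immediate early genes, which neurons switch on with activity, 4 of 9 were at an unadjusted p under 0.05 and higher with R55 (median log2 fold change 0.44). So were 2 of 7 GABAergic markers (all genes 4.71%), and no gene of either list was called. The part of these markers in the values of the 36 genes was not tested.

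When the hemispheres of a mouse were joined by a replicate block (correlation 0.347), the same log2 fold change of Vamp1 had a limma adjusted p of 0.90, and 0 of the 36 genes were at an unadjusted p under 0.05 (all genes 4.0%). The fit without the block, from which the standard errors and intervals here come, counts both libraries of a mouse as separate samples.

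R33 against vehicle gave a similar count. None of the 36 passed the limma test, with or without voom, nor did any other gene (0%). At an unadjusted p under 0.05, 2 of the 36 were higher (all genes 3.19%) and 1 was lower (all genes 2.68%), and under the replicate block 1 was (all genes 2.25%), Vamp1. The median log2 fold change of the 36 was -0.05, with 12 estimates above 0 and 24 below, against a median of 0.02 over all genes. No member separated the R33 mice from the vehicle mice (all genes 0.355% wholly higher, 0.416% wholly lower).

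Vamp1 had mouse means of 78.6, 80.5, 62.1, 63.7 and 80.1 FPKM in R33 mice K, O, N, AE and AD. Of these 5 mice, 4 were above every vehicle mouse, and N lay just under vehicle mouse AH at 62.8 FPKM. This gave a log2 fold change of 0.42 ± 0.15 (95% interval 0.10 to 0.73, limma adjusted p = 0.834).

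Syt2 (chr1:134574290-134690331) had mouse means of 17.3, 15.1, 13.7, 15.2 and 14.1 FPKM in R33 mice K, O, N, AE and AD, and 9.14, 9.17, 11.2 and 15.2 FPKM in vehicle mice J, M, L and AH. The vehicle mouse AH lay among the R33 mice and the other 3 lay under all of them. The log2 fold change was 0.47 ± 0.21 (limma adjusted p = 0.834). Within the mice with 1-letter labels it was 0.68, and within those with 2-letter labels, with 1 vehicle mouse, it was -0.06.

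Syn2, a synapsin (chr6:115111825-115261708), averaged 94.99 ± 12.8 FPKM in 4 vehicle mice and 80.7 ± 3.75 FPKM in 5 R33 mice. Its R33 means were 79.7, 75.2, 82.7, 85.2 and 80.6 FPKM in mice K, O, N, AE and AD. The vehicle mice split, with J and L at 107.9 and 103.8 FPKM and M and AH at 81.8 and 86.4 FPKM. The log2 fold change was -0.22 ± 0.10 (limma adjusted p = 0.834). For the calcium sensor Syt7 (log2 fold change -0.18) and for Synj1 (-0.19) the limma adjusted p was 0.834 as well.

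**Figure D2:**
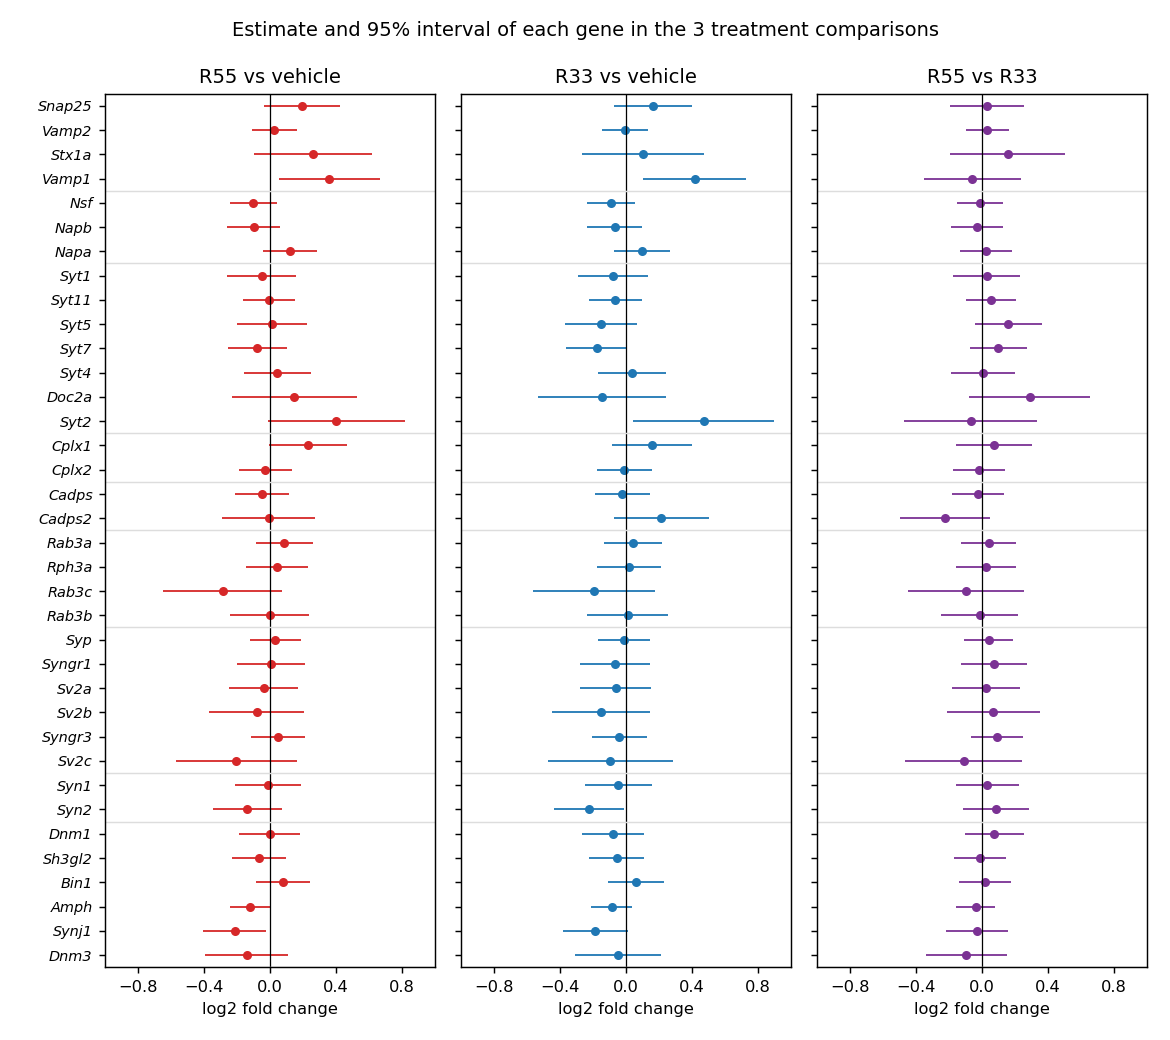
Log2 fold change (point) and 95% interval (line) of each of the 36 genes in R55 against vehicle, R33 against vehicle and R55 against R33, on a log2(FPKM + 1) scale, from the fit that counts both libraries of a mouse as separate samples. Intervals that miss 0 are those of Vamp1, Synj1 and Amph for R55 and of Vamp1, Syt2 and Syn2 for R33, and every interval of R55 against R33 holds 0.

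The compounds were given at the same dose and measured at the same time, so they were also compared with each other, 1 pair of compounds over 36 genes. The R55 and R33 comparisons with vehicle share the vehicle mice. In R55 against R33 none of the 36 passed the limma test, with or without voom, as was so for all genes (0%). None of the 36 was at an unadjusted p under 0.05, in either direction (all genes 0.732% higher and 0.416% lower), and none separated the mice (all genes 0.0771% and 0.0231%). The median log2 fold change was 0.02.

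The 95% interval held 0 for all 36, and for 34 of them the interval lay within 0.5 of 0 on the log2 scale. It was narrowest for Nsf, the ATPase that takes SNARE complexes apart, with a bound of 0.15, and widest for Doc2a, a calcium sensor of spontaneous and asynchronous release, with a bound of 0.66. The smallest p belonged to Cadps2, a CAPS priming factor (chr6:23262103-23839546), which averaged 16.7 ± 2.96 FPKM in 5 R55 mice and 19.4 ± 5.37 FPKM in 5 R33 mice (log2 fold change -0.22, 95% interval -0.50 to 0.05, limma adjusted p = 0.9998). Doc2a (log2 fold change 0.29, 95% interval -0.08 to 0.66) and the vesicle calcium sensor Syt5 (0.16, -0.04 to 0.37) came next, both with a limma adjusted p of 0.9998. Syt7 differed by 0.10 (-0.07 to 0.28) and the synaptogyrin Syngr3 by 0.09 (-0.07 to 0.25).

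Sv2c stood at 2.77 ± 0.42 FPKM in vehicle, 2.79 ± 1.09 FPKM in R33 and 2.31 ± 0.52 FPKM in R55 mice. R33 mice N and AD were at its ends, with 4.04 and 1.07 FPKM. N is the mouse whose injected library was high in striatal markers, and AD the one whose injected library had the steepest loss with length; their part in the Sv2c values was not tested.

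The injected hemisphere was compared with the contralateral one over all treatments, and none of the 36 genes passed the limma test, with or without voom (all genes 0%). At an unadjusted p under 0.05, 2 were higher (all genes 1.46%), Syt2 and Vamp1, and 0 were lower (all genes 2.01%). Under the replicate block, a paired fit within the 13 mice that had both sides, 6 of the 36 were at an unadjusted p under 0.05 (all genes 6.13%, against 3.47% without the block) and again none was called. Cadps, Sv2c, Syt2 and Vamp1 were higher on the injected side and Rab3b and Vamp2 lower. The smallest limma adjusted p over all genes in this paired fit was 0.097. The standard errors and adjusted p given by gene below are from the fit without pairing. The median log2 fold change was 0.01, with 21 estimates above 0 and 15 below.

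Vamp1 was 44.1 ± 12.99 FPKM in the 4 contralateral vehicle libraries and 67.3 ± 8.28 FPKM in the 4 injected ones. By mouse the contralateral values were 29.9, 49.7, 37.4 and 59.2 FPKM in J, M, L and AH, and the injected values were 76.4, 56.5, 69.9 and 66.4 FPKM. In all 4 vehicle mice the injected side was higher, and in mice J and L by the most.

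In the drug groups Vamp1 had other sides. The contralateral libraries of R33 mice K, O, N and AD held 82.3, 65.3, 44.1 and 70.8 FPKM and the injected ones of K, O, N, AE and AD held 74.9, 95.8, 80.1, 63.7 and 89.3 FPKM. In R55 mice P, Q, R, AA and AB the contralateral values were 73.4, 43.9, 76.6, 78.0 and 87.8 FPKM and the injected ones 73.4, 58.8, 80.5, 64.0 and 63.5 FPKM. The injected side was higher in 3 of 4 R33 mice and in 2 of 5 R55 mice. Over all treatments the log2 fold change of Vamp1 was 0.28 ± 0.12 (limma adjusted p = 0.9999, higher in 9 of 13 mice).

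Syt2 followed a like course. Its contralateral values in vehicle mice J, M, L and AH were 3.23, 9.72, 6.46 and 14.2 FPKM and its injected values 15.0, 8.61, 15.9 and 16.1 FPKM. The log2 fold change over all treatments was 0.38 ± 0.16 (limma adjusted p = 0.9999), and the injected side was higher in 7 of 13 mice. Sv2c (log2 fold change 0.29), Syngr3 (-0.12) and Vamp2 (-0.09) also had a limma adjusted p of 0.9999 in this unpaired fit. Vamp2 was lower on the injected side in all but 2 of 13 mice and, like Sv2c, was among the genes named above for the paired fit.

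**Figure D3:**
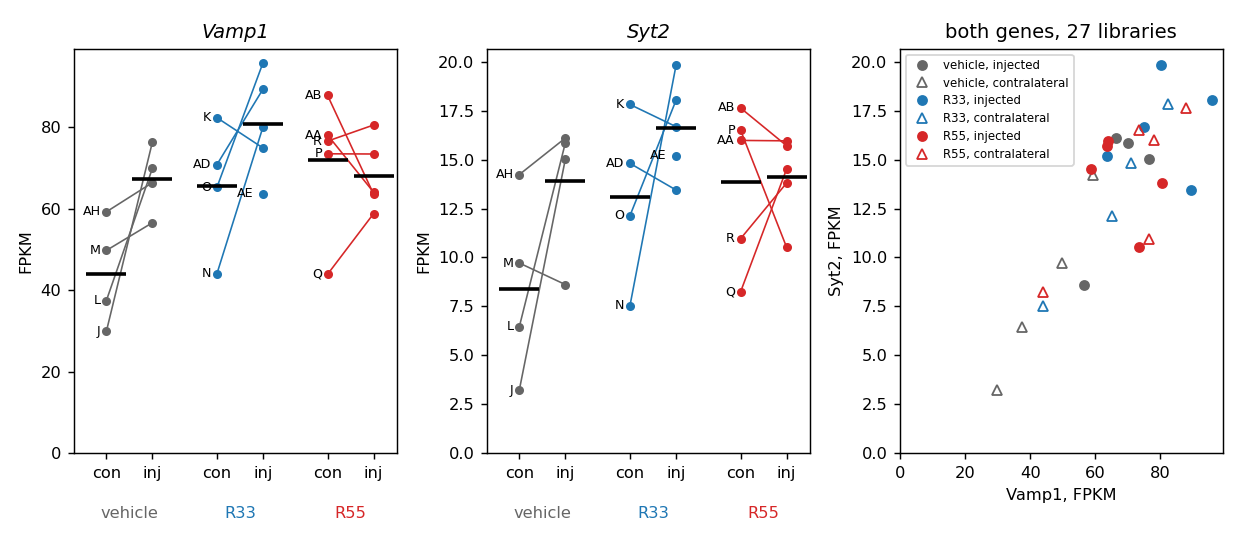
FPKM of Vamp1 and Syt2 in the contralateral (con) and injected (inj) libraries, with lines joining the sides of a mouse, letters naming the mice and black bars for group means, and the levels of both genes plotted against each other over 27 libraries. The contralateral libraries of vehicle mice J and L are the lowest for both genes.

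The treatment by hemisphere interaction asks whether the injected minus contralateral difference of the drug mice differed from that of the vehicle mice. For R55 none of the 36 passed the limma test, with or without voom (all genes 0%). At an unadjusted p under 0.05, 0 were higher (all genes 0.601%) and 1 was lower (all genes 1.24%), Vamp1, with an interaction of -0.69 ± 0.28 on the log2 scale (limma adjusted p = 0.999). With median-of-ratios size factors the counts over all genes were 137 and 129, in place of 78 and 161. Under the replicate block 5 of the 36 were at an unadjusted p under 0.05 (all genes 5.93%, against 1.84% without the block). Syt4, a synaptotagmin that does not act as a fast calcium sensor (0.35 ± 0.17), and the SNAP adaptor Napb (0.29 ± 0.15) had a limma adjusted p of 0.999. In the contralateral libraries alone the R55 minus vehicle difference of Vamp1 was 0.70, and in the injected libraries alone it was 0.01.

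For R33 the interaction called none of the 36, with or without voom (all genes 0%), and at an unadjusted p under 0.05 it named 0 of the 36 (all genes 0.0771% higher and 0.301% lower). Snap25 (-0.33 ± 0.23), Syt1 (-0.26 ± 0.20) and Vamp1 (-0.32 ± 0.28) had the smallest p, each with a limma adjusted p of 0.9997. Of the 36 estimates 28 were below 0, with a median of -0.10 (-0.04 without vehicle mouse J and -0.15 without vehicle mouse L). All of them rest on the same vehicle mice, so they are not independent. The share over all genes is not given here, and the count is only a description.

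The low contralateral vehicle libraries weighed on the estimates of Vamp1 and Syt2. Without the contralateral library of mouse J, the log2 fold change of Syt2 was 0.22 in R55 against vehicle, in place of 0.40, 0.30 in R33 against vehicle, in place of 0.47, and 0.27 between hemispheres, in place of 0.38. That of Vamp1 was then 0.26, 0.32 and 0.22, in place of 0.36, 0.42 and 0.28. Without the contralateral library of mouse L, those of Vamp1 were 0.31, 0.36 and 0.24. Without either of them, 0 of the 36 genes were at an unadjusted p under 0.05 between hemispheres. In the R55 by hemisphere interaction, Vamp1 was no longer at an unadjusted p under 0.05 without the contralateral library of J, but still was without that of L. It was also no longer so without mouse J, L or AB.

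Vamp1 and Syt2 moved together over the libraries. Of the 630 pairs among the 36 genes, theirs had a Pearson r of 0.87 over 27 libraries (Spearman rho 0.69, and r 0.73 without the contralateral libraries of J and L). Over all tested genes, Syt2 was the gene most like Vamp1, ahead of the potassium channel subunit Kcnab3 (0.85) and the heavy neurofilament Nefh (0.85). The libraries share mice, treatments and depth, so these correlations are descriptions. Pvalb, the calcium buffer that defines parvalbumin interneurons, was 34.8 and 38.5 FPKM in the contralateral libraries of J and L, the lowest of the 27 (range up to 134 FPKM), and correlated with Vamp1 at r = 0.69 and with Syt2 at r = 0.66. Without the contralateral library of J and the injected library of AD these values were 0.57 and 0.63. The contralateral library of J was also high in Ttr (1109 FPKM). The part of Pvalb and Ttr in the Vamp1 and Syt2 values was not tested. The GABAergic marker list as a whole, 7 genes, summed to 543 to 741 FPKM in vehicle, 621 to 903 in R33 and 600 to 835 in R55 libraries, with none of its genes at 0.

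Other members formed pairs as well. Vamp2 and Syt5 had an r of 0.89 (rho 0.87), Syn1 and Dnm1 of 0.87 (rho 0.88), Cadps and Dnm3 of 0.87 (rho 0.89) and Syngr1 and Dnm1 of 0.86 (rho 0.87), each over 27 libraries. Syn2 went against Vamp1 (r = -0.74, or -0.49 without the contralateral libraries of J and L) and Rab3c, a Rab3 protein, against the SNAP adaptor Napa (r = -0.76). Over all 630 pairs the median r was 0.22, with 44 pairs above 0.7 and 11 below -0.5.

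Transcript length moved with the estimates. Over the 36 genes, Spearman's rho between transcript length and the log2 fold change was -0.60 for R55 against vehicle, -0.36 for R33 against vehicle and -0.55 between the label forms, and over all tested genes it was -0.49, -0.46 and -0.34. Genes are not independent replicates, so these too are descriptions. In R55 against vehicle, 12 of the 18 shorter genes had estimates above 0 and 4 of the 18 longer ones did. With the length trend removed those counts were 8 and 6, and rho was -0.25. Without the injected library of AD and the contralateral library of Q, rho was -0.52 for R55 (counts 11 and 6) and -0.08 for R33. In R55 against R33 rho was -0.44 over the 36 genes (counts 12 and 10) and -0.15 over all genes. Without the same libraries it was stronger over the 36 genes, at -0.62 (counts 13 and 6).

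**Figure D4:**
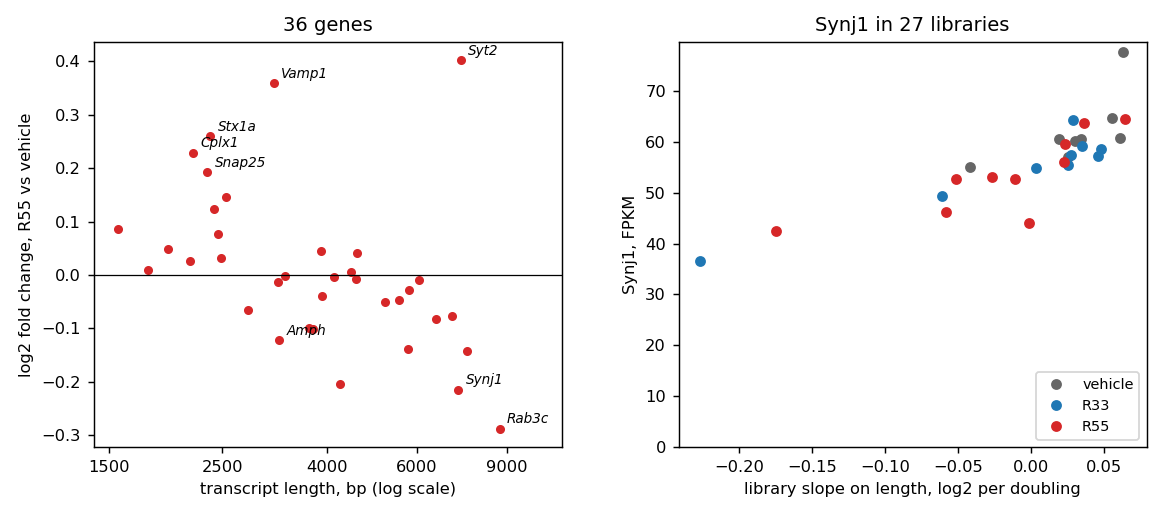
Left, log2 fold change of R55 against vehicle for the 36 genes against transcript length in bp on a log scale. Right, FPKM of Synj1 in 27 libraries against the slope of each library's log2 deviation on log2 length (per doubling of length), with the injected library of AD and the contralateral library of Q at the far left and with low Synj1.

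Synj1 and Dnm3, both with long transcripts, moved most closely with this slope (r = 0.87 and 0.75 over 27 libraries, and 0.76 and 0.62 without the injected library of AD and the contralateral library of Q). Synj1 was 36.7 FPKM in the injected library of AD and 42.4 FPKM in the contralateral library of Q, the 2 lowest of all, against a median of 57.2 FPKM. Without those libraries its log2 fold change for R55 against vehicle was -0.18, in place of -0.22, and its part in the treatment result was not tested further.

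Calls among these genes were made between the forms of the mouse label and in no treatment comparison. Between mice with 2-letter and 1-letter labels, 5 of the 36 genes passed the limma test, 4 higher (all genes 8.85%) and 1 lower (all genes 10.2%, 19.1% in either direction). At an unadjusted p under 0.05, 9 of the 36 were higher (all genes 16.1%) and 3 were lower (all genes 17.7%). All 5 are named, Syt5 and Cadps2 after their values were seen. Treatments were spread over both forms, 3 and 1 mice in vehicle, 3 and 2 in R33 and 3 and 2 in R55.

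Cplx1 (chr5:108666416-108697899), rose in the mice with 2-letter labels. Its mouse means were 462, 449.9, 505.5, 502.5 and 498.9 FPKM in AH, AE, AD, AA and AB, and in the 9 mice with 1-letter labels they ran from 317 through a median of 383 to 423 FPKM. The groups did not overlap, which was so for 1 of the 36 genes (all genes 0.786% wholly higher, 1.68% wholly lower). The log2 fold change was 0.37 ± 0.07 (limma adjusted p = 0.00168).

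Doc2a (chr7:126446106-126451895), was 20.8 ± 3.68 FPKM in 5 mice with 2-letter labels and 15.3 ± 4.08 FPKM in the 9 others, with vehicle mouse L of the latter the highest of all at 23.7 FPKM. It rose by 0.51 ± 0.13 on the log2 scale (limma adjusted p = 0.00926). Vamp2 (chr11:68979316-68983210) averaged 687.5 ± 27.5 and 617 ± 35.2 FPKM and rose by 0.17 ± 0.05 (limma adjusted p = 0.0126). Syt5 (chr7:4542756-4550922) averaged 114.5 ± 7.72 and 98.02 ± 14.3 FPKM and rose by 0.27 ± 0.07 (limma adjusted p = 0.0153). Cadps2 averaged 15.0 ± 1.95 and 19.2 ± 3.70 FPKM and was the member that fell, by 0.30 on the log2 scale (SE 0.11, limma adjusted p = 0.0437).

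**Figure D5:**
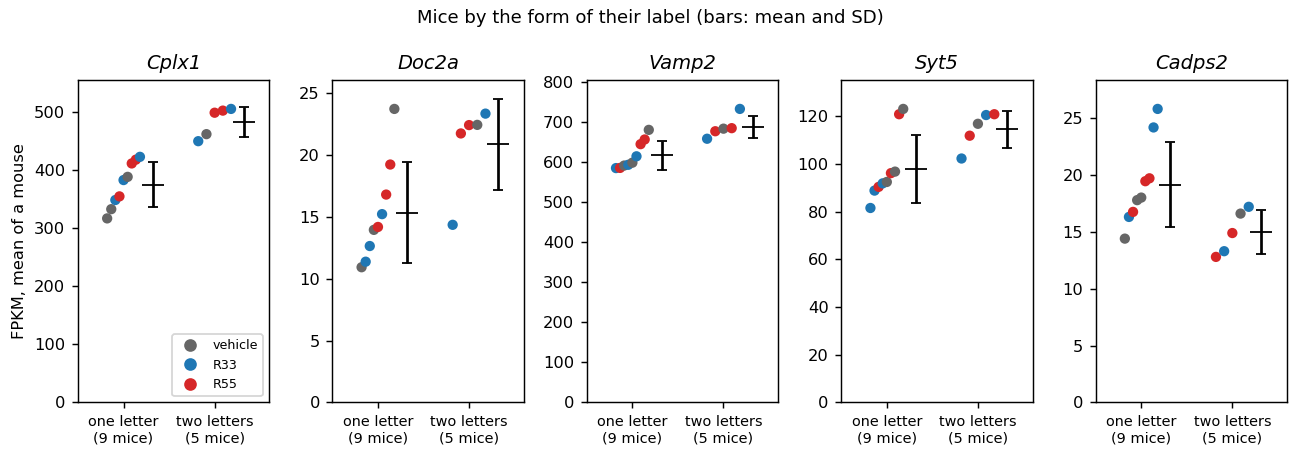
Mean FPKM of each mouse for Cplx1, Doc2a, Vamp2, Syt5 and Cadps2, by the form of the mouse label and coloured by treatment, sorted by value within a form, with the mean and SD of each form. For Cplx1 all 5 mice with 2-letter labels lie above the 9 with 1-letter labels, and for the others the forms overlap.

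The number of calls moved both ways with the setting. It was 9 without vehicle mouse L (all genes 19.5%), without its contralateral library alone (19.6%), without R55 mouse Q (22.8%) and without the libraries with the steepest length trend (22.6%), and 8 with the length trend removed (23.8%). Without R33 mouse AD, and with 1 value per mouse, Cplx1 was called and Doc2a, Vamp2, Syt5 and Cadps2 were not (all genes 12.4% and 5.71%). Under the replicate block 4 of the 5 were called (all genes 10.4%), all but Cadps2, which was called in 4 of the 14 fits that left out a mouse. Markers of other cell types moved with the label form too. All 4 endothelial markers fell (median -0.92 on the log2 scale). The summed level of other lists had a higher library median with 2-letter than with 1-letter labels. It was 356 against 255 FPKM for microglia markers, 313 against 246 FPKM for immediate early genes and 764 against 636 FPKM for GABAergic markers. Pvalb, a GABAergic marker, correlated with Cplx1 at r = 0.87 over 27 libraries (rho 0.83, and r 0.83 without the injected library of AD and the contralateral library of J), more than with Vamp1 or Syt2. The part of these markers in the Cplx1, Doc2a, Vamp2, Syt5 and Cadps2 values was not tested. With the label form as a covariate the log2 fold change of Vamp1 was 0.34 for R55 and 0.41 for R33, and within the mice with 1-letter labels it was 0.38 and 0.49.

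Other genes of the vesicle cycle, in 5 lists of 92 genes, of which 90 were tested, were read in the same fits. In R55 against vehicle 3 were at an unadjusted p under 0.05 and higher (all genes 4.71%) and 6 were lower (all genes 3.74%), with none called. Esyt1, an extended synaptotagmin of membrane contact sites, averaged 4.33 ± 0.16 FPKM in 4 vehicle mice and 5.71 ± 0.94 FPKM in 5 R55 mice (log2 fold change 0.33 ± 0.09, limma adjusted p = 0.259). Vamp3, a SNARE of recycling endosomes (0.23 ± 0.10), the clathrin adaptor subunit Ap2b1 (-0.19 ± 0.07) and Rab27b, a Rab protein of secretory vesicles (-0.20 ± 0.07), had limma adjusted p of 0.562, 0.552 and 0.552. The transmitter transporters and proton pump subunits, 20 genes, had none at an unadjusted p under 0.05 in either drug comparison with vehicle.

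In R33 against vehicle 3 of the 90 were at an unadjusted p under 0.05 and higher (all genes 3.19%) and 3 were lower (all genes 2.68%), with none called. Cplx3, a complexin known from retinal ribbon synapses, differed by 0.51 ± 0.18 (limma adjusted p = 0.834), and Snapin, a SNAP25 binding protein, by 0.15 ± 0.06 (limma adjusted p = 0.834). In R55 against R33 the count was 1 of 90 (all genes 1.15%), Synj2, the relative of Synj1 (0.18 ± 0.07, limma adjusted p = 0.9998). Between hemispheres 2 of 90 were higher (all genes 1.46%) and 2 lower (all genes 2.01%) at an unadjusted p under 0.05, and none was called.

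Between the label forms 20 of the 90 were called, 8 higher and 12 lower, near the share of all genes (19.1%, with 8.85% higher and 10.2% lower). Cltb, a clathrin light chain, rose by 0.25 ± 0.05 (limma adjusted p = 0.00223) and Rab3il1, an exchange factor for Rab proteins, by 0.44 ± 0.10 (limma adjusted p = 0.00426). Esyt2, an extended synaptotagmin, fell by 0.32 on the log2 scale (limma adjusted p = 0.00116), and Sgip1, an endocytic adaptor, fell by 0.25 (limma adjusted p = 0.00402).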

How the data were processed

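Cortical RNA-seq libraries were aligned by the authors with HISAT2 to GRCm39, and the deposited table holds FPKM per gene and library. The authors' comparisons used DESeq2. To recover depth, a unit was sought for each gene at which every value above 0 is a whole number of fragments within 0.01. That 100% of values are whole follows from this search. As separate checks, the recovered library totals met the scaling between libraries within a relative gap of 5e-07. Lengths came out as whole base pairs within 0.01 for 99.87% of genes with at least 50 fragments. The study states 6 mice per group, and 27 libraries of 14 mice could be matched to labels, while 5 libraries of the table were not used. Genes with a mean FPKM of at least 1 were tested with limma 3.58.1 (R 4.3.3, statmod 1.5.0) on log2(FPKM + 1), with treatment and hemisphere as separate factors, an interaction fit, and a fit on the form of the mouse label. P-values were Benjamini-Hochberg adjusted over 12976 genes, at a threshold of 0.05. Tables and correlations were made with Python 3.11.15 and scipy 1.17.1. Gene positions and promoter windows came from GENCODE vM39 and RefSeq. The R55 fit was tested on simulated counts with the same dispersion for all 12976 genes, 200 of them changed. It called 9% of changes of 0.25 on the log2 scale, 95.5% of changes of 0.5 and 99.5% of changes of 1. The simulated libraries were drawn independently, without the correlation between hemispheres of a mouse. These shares do not carry over to genes that vary more, such as Vamp1 and Syt2. Their SD over the 27 libraries was 23.9% and 30.0% of the mean.

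Hemispheres of a mouse come from the same animal. Their deviations from the group means correlated at a mean r of 0.394 over 13 mice (from -0.079 to 0.648, 11 over 0.1), so a fit with mouse as a replicate block was run. The genes with full values were, per comparison, up to 5 of the 36 with the smallest unadjusted p (3 in the interaction and label fits), and up to 2 per direction of the other lists. The 36 genes and the lists were chosen with earlier results of these data known. Alternatives covered pseudocount, filter, scaling, voom, the length trend, covariates, hemispheres, label forms and left-out mice or libraries, and those leaving out the striatal-high, steep-length, J and L libraries were chosen after seeing the data. Some items are not reported here.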

Additional observations from a re-analysis of the deposited data

Results flagged for a closer look

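In groups of 4 or 5 libraries, 102 sets of values (17 genes in 6 groups) were examined for a library far from the rest, and 6 stood out by Dixon's criterion, where chance alone gives about 1 in 20. Vamp1 was 43.9 FPKM in the contralateral library of R55 mouse Q, against 73.4 to 87.8 FPKM in the other R55 mice. Vamp2 was 757 FPKM in the contralateral library of R33 mouse AD, against 621 to 636 FPKM in the others. Syt2 was 8.61 FPKM in the injected library of vehicle mouse M, against 15.0 to 16.1 FPKM in the others. Amph was 81.2 FPKM in the contralateral library of vehicle mouse L, against 69.5 to 70.4 FPKM in the others. Synj1 was 36.7 FPKM in the injected library of R33 mouse AD, against 55.5 to 59.1 FPKM in the others, and 56.9 FPKM in the injected library of vehicle mouse AH, against 60.2 to 60.5 FPKM in the others.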

How the results depend on the processing

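The count of the 36 genes at an unadjusted p under 0.05 moved with the setting, as did the share of all genes (given in brackets for the hemisphere, label and library settings), and the cause was not tested. Within mice with 2-letter labels the vehicle group is 1 mouse, AH, so values there rest on 1 animal. For R55 against vehicle (3, all genes 8.45%) it was 7 (11.5%) and 1 (1.09%) within the contralateral and the injected hemisphere, 0 (3.74%) within mice with 2-letter labels, 5 (8.35%) without the libraries high in striatal markers, 5 (10.2%) without those with the steepest length trend, 1 (10.9%) and 0 (6.42%) without the contralateral libraries of mice J and L, and 0 (without mouse R) to 6 (without mouse AH) when 1 mouse was left out. For R33 against vehicle (3, all genes 5.87%) it was 1 (2.96%) and 0 (1.84%) within the contralateral and the injected hemisphere, 1 (7.93%) within mice with 2-letter labels, 1 (3.17%) without the contralateral library of L, and 1 (without K or O) to 4 with 1 mouse left out. For R55 against R33 (0, all genes 1.15%) it was 4 (3.91%) within the injected hemisphere, 1 (4.19%) within mice with 1-letter labels, and 0 to 3 (without R or AD) with 1 mouse left out. Between hemispheres (2, all genes 3.47%) it was 4 (4.17%) with the label form as a covariate, 0 (3.76%) without the libraries high in striatal markers, 0 without the contralateral library of J (3.38%) or of L (3.12%), and 0 (without J, L, N or O) to 4 (without P or R) with 1 mouse left out. In the paired fits that leave out 1 mouse it was 1 (without J, L, N or O) to 6, against 6 in the full paired fit. For the R55 by hemisphere interaction (1, all genes 1.84%) it was 3 (2.05%) with median-of-ratios size factors, 5 (1.44%) with the length trend removed, 2 (2.54%) with the label form as a covariate, 4 (2.19%) without the steepest libraries, and 0 (without L or AB) to 4 (without M or P) with 1 mouse left out.

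With mouse as a replicate block, the count was 0 (all genes 4.0%) for R55 against vehicle and 1 (2.25%) for R33 against vehicle. These fits use the correlation between hemispheres and are not paired, since a mouse had 1 treatment. In the paired fits the count was 6 (6.13%) between hemispheres and 5 (5.93%) for the R55 by hemisphere interaction. The call on Cadps2 between label forms was lost, and no other call on the 36 genes changed under the block.

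Among the genes with full values, directions reversed in 3 cases: Syt2 in R33 against vehicle within mice with 2-letter labels (-0.0597, with 1 vehicle mouse), and Syt7 (-0.0501) and Syngr3 (-0.0281) in R55 against R33 within the contralateral hemisphere. The median log2 fold change of the 36 genes moved by less than 0.14 under all alternatives run for R55, R33, R55 against R33 and hemisphere. This bound, the SD over vehicle mice of the mean log2 level of the 36, is wide beside these medians. Without vehicle mouse L the median changed sign, to 0.06 for R55 and 0.02 for R33 against vehicle. For R55 it was also positive in the injected hemisphere (0.02), and without mouse R (0.03) or AH (0.03). The same held without the striatal-high libraries (0.02) or the contralateral library of L (0.03). For R33 it was positive in the contralateral hemisphere (0.02). It turned negative for R55 against R33 in the contralateral hemisphere (-0.05). Between hemispheres it did so without R55 mouse Q (-0.01), without the contralateral library of J (-0.01) and in paired fits without J, N, Q or R. Depth was at least 102 fragments for every one of the 36 genes in every library.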
